A study of Mus musculus with 6 samples.

Results

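The genes described here are 83 of the 18193 genes measured: 61 whose symbol begins with Gpr and a digit, and 22 whose symbol begins with Adgr. They were chosen by symbol alone, from probe sets (groups of short probes for one transcript) that the array annotation assigns to a single gene, and where a gene had several, the one with the highest mean signal on the 6 arrays stood for it. Gpr symbols were given to receptors found by sequence, most of them orphans with no agreed ligand, and to some multi-pass membrane proteins that sit in the Golgi or the lysosome. Adgr genes encode adhesion G protein-coupled receptors, whose long extracellular parts bind matrix or neighbouring cells and are cut at a conserved site close to the membrane. A G protein-coupled receptor crosses the membrane with a bundle of helices and activates a heterotrimeric G protein, which then acts on effectors such as adenylyl cyclase and phospholipase C beta.

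The samples were mouse embryonic fibroblasts, labelled as C57BL/6 cells from embryos of 14 days of gestation, pooled from males and females, and grown in medium with fetal bovine serum. One group of 3 arrays was labelled wild-type and the other group of 3 was labelled abl/arg knockout, which lacks c-Abl and Arg, the tyrosine kinases that Abl1 and Abl2 encode. The comparison asks how transcript levels differ between the group labelled as lacking both kinases and the wild-type group. Nothing in the labels ties the 3 arrays of either group to separate cultures, embryos or lines. Loss of the kinases and a difference between cultures or lines therefore cannot be told apart. For the same reason the p-values reflect array-to-array spread alone, possibly technical, and 3 arrays a group limit the precision.

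Median signals were 13.4 to 14.7 per array, and across genes no array correlated with one of its own group below 0.998 or with one of the other group above 0.904. The brightest Abl1 probe set read 182, 183 and 189.9 on the wild-type arrays and 178, 171 and 161 on the arrays labelled knockout (log2 difference -0.11, 95% interval -0.23 to 0.01, limma adjusted p = 0.107). The brightest Abl2 probe set read 245, 262 and 261 against 267, 253 and 243 (log2 difference -0.01, 95% interval -0.13 to 0.10, limma adjusted p = 0.888). The 2 dimmer Abl1 probe sets rose by 0.21 and 0.28. Neither targeted gene was clearly lower, and where the probes lie relative to the deleted parts was not analysed here, so every direction is that of the arrays labelled knockout. Of 9 fibroblast markers, 7 rose and none fell, and their summed signal was 6379 to 7153 in wild type and 15379 to 15973 in the arrays labelled knockout. Pdgfra, a defining fibroblast receptor gene, went from 9.99 ± 0.999, under the array median on all wild-type arrays, to 1789 ± 56.7 (SD, n = 3 each). Thy1 and Lum were under the array median on all arrays, and Lum is among the 7 counted as risen. Macrophage markers (6, with 1 up and 1 down) summed to 74.5 to 76.1 and 86.4 to 93.1, other leukocyte markers (5) to 73.1 to 74.6 and 46.5 to 48.0, and endothelial markers (6) to 38.5 to 46.2 and 34.6 to 41.0. Neural and glial markers (6, with 3 down) summed to 218 to 231 in wild type and 103 to 107 in the arrays labelled knockout, epithelial markers (5) to 50.9 to 51.8 and 34.7 to 41.6, muscle markers (6) to 108 to 126 and 70.4 to 80.6, and adipocyte markers (4) to 25.9 to 29.3 and 691 to 710, the last from Fabp4. Ptprc, Pecam1, Snap25, Cdh1 and Adipoq were under the array median on all arrays, while some other genes of these lists were brighter and fell. Among them Map2 went from 101 to 30.3, Tubb3 from 52.9 to 8.14, Elavl3 from 20.2 to 13.0, Coro1a from 35.7 to 8.10, Epcam from 24.6 to 15.9 and Des from 78.1 to 40.7 on average. The macrophage marker Cd68 rose, from 19.3 to 41.0 (0.69, limma adjusted p = 2.79e-06). Mrc1, the macrophage marker that fell, was under the array median on all arrays. Adgre1 (macrophage) and Adgrl4 (endothelial) are also members, and Adgrl4 was the only endothelial marker that passed. Whether other cells had a part in any result below was not tested, and in bulk RNA fewer cells of a type and less RNA per cell cannot be told apart.

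Differences are knockout minus wild type on the scale log2(signal + 16), which understates changes of dim genes, and a gene rose or fell where limma gave an adjusted p under 0.05 over all 18193 genes. Of the 83 members, 10 rose and 21 fell, 37.3% together, beside 59.8% of all genes tested (24.3% rose and 35.5% fell). At 2-fold or more, 3 members rose and 6 fell, beside 7.06% and 8.85% of all genes. The groups did not overlap for 38 members (45.8%), beside 64.7% of all genes. The median difference of the members was -0.03, and that of all genes was also -0.03. The split of calls depended on how the arrays were scaled. It was 42 up and 11 down with poly-A spike controls as reference, 8 and 53 with hybridization spike controls and 9 and 51 with each array centred on its median. The calls over all genes moved with the scaling as well, to 57.3% up and 15.5% down, 16.7% and 58.9%, and 22.3% and 53.5% in the same order. The median of all genes moved to 0.12 with the poly-A reference.

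Most of these receptors were near the floor of the arrays in both groups. A total of 52 members were under the array median on all 6 arrays, and their signals ran from 1.64 to 14.6. Of the 52, 9 fell and none rose, with differences from -0.37 to 0.10, beside 15.7% and 4.98% of the 6104 genes of all kinds that were equally dim. The other 31 members reached the array median on at least 1 array. Gpr62 was just inside that limit, with 13.2, 11.3 and 14.9 in wild type and 11.8, 11.9 and 13.1 in the arrays labelled knockout. Gpr26 was just outside it, with 12.1, 11.3 and 11.7 against 10.96, 9.72 and 12.1. Of the 31, 10 rose and 12 fell, 71.0% in all, and of all 12089 genes as bright 79.5% passed (34% rose and 45.5% fell). A gene that is bright in 1 group only enters these 31 through that group, a choice that favours genes that differ, which makes these counts a description.

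**Figure D1:**
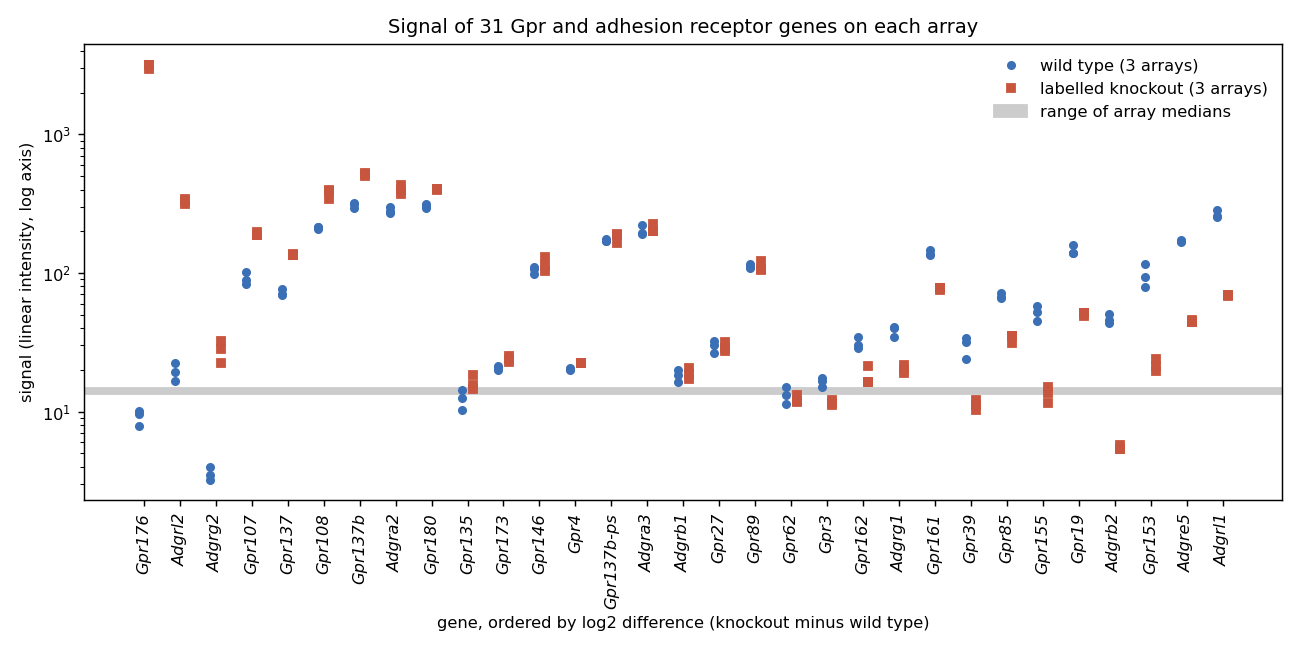
Signal (linear intensity, log axis) of the 31 members that reached the array median on at least 1 array, ordered by log2 difference, with circles for the 3 wild-type arrays, squares for the 3 arrays labelled knockout and a grey band for the range of array medians (13.4 to 14.7). Gpr176, Adgrl2 and Adgrg2 at the left have no overlap between groups and rise from under or just above the band, and Adgrl1, Adgre5 and Gpr153 at the right fall without overlap.

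The orphan receptor Gpr176 had by far the largest difference of any member. Its signal was 9.67, 7.89 and 10.1 on the wild-type arrays and 2969, 3179 and 3146 on the arrays labelled knockout. All wild-type values lay under their array medians, and the knockout values were all bright. The log2 difference was 6.95 ± 0.05 (SE, n = 3 arrays each, limma adjusted p = 3.22e-16), but with wild-type values this dim its size depends on the offset. It ran from 5.43 with an offset of 64 to 8.25 with an offset of 1, and stayed between 6.77 and 7.29 under the other scalings of the arrays. Gpr176 is known as a receptor of the brain's circadian pacemaker that couples to the G protein Gz. The gene of the Gz alpha subunit, Gnaz, read 96.6, 103 and 112 in wild type and 10.0, 12.9 and 12.9 in the arrays labelled knockout, so that it went the other way (-2.10 ± 0.08, SE, limma adjusted p = 2.22e-10). A single probe set reads Gpr176, so no second one checks its value.

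The promoters of Gpr176, Adgrl2 and Adgrl1, the members with the largest rises and the largest fall on the scale used here, are shown. They are the annotated upstream sequence of those genes, and which start site these cells used was not measured. They are from RefSeq on the mouse build GRCm38.p6, from 250 bases before to 50 after the gene start, 5′ to 3′ on the gene's strand, with capitals marking the GC box GGGCGG or its reverse complement CCGCCC, the letters that Sp1-type factors are known to bind. The 3 windows lie at chr2:118373370-118373669 (minus strand), chr3:148954586-148954885 (minus strand) and chr8:83899848-83900147 (plus strand).
Gpr176: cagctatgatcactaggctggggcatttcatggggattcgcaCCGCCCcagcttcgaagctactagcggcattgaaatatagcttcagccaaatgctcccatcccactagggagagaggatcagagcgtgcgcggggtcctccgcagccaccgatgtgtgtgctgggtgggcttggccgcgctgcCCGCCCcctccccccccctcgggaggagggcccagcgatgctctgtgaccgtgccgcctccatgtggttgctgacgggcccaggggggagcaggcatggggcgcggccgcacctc
Adgrl2: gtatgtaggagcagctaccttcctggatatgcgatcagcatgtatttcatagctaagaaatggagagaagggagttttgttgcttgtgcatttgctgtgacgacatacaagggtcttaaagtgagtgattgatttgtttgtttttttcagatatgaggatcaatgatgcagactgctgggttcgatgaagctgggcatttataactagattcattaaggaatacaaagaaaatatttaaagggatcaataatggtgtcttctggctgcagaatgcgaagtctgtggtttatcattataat
Adgrl1: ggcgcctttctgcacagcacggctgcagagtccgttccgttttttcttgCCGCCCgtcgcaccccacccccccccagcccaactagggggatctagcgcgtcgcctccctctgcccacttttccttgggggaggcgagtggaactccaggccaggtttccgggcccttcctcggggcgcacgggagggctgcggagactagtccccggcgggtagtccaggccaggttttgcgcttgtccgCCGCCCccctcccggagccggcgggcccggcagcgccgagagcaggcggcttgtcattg
The Gpr176 and Adgrl1 windows each held 2 matches, both on the reverse strand, with a GC content of 66.3% and 70.0%. The Adgrl2 window had a GC content of 38.0% and no match, which says only that these letters are not in this window. Its 50 bases after the annotated start open with atg, the letters of a translation start. The annotated start may thus be that of coding sequence, and this window may hold no promoter. Its letters are therefore not to be compared with those of the other windows. At least 1 match was present in 35.7% of all 32851 promoters of this length and in 36 of the 82 promoters listed for 63 members (43.9%). Matches on the 2 strands do not overlap one another, and a match is a description of letters and no measured site.

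Latrophilins are adhesion receptors for teneurins and FLRT proteins on neighbouring cells, and 2 of them differed in opposite directions. Adgrl2 (latrophilin-2) read 16.6, 19.3 and 22.5 in wild type and 339, 332 and 314 in the arrays labelled knockout, which lay above all wild-type values. Its log2 difference was 3.28 ± 0.08 (SE, limma adjusted p = 2.29e-12), and a second bright probe set of the gene gave 3.36. Adgrl1 (latrophilin-1) read 252, 256 and 284 in wild type and 69.9, 69.1 and 68.2 in the arrays labelled knockout, with no overlap. It fell by 1.72 ± 0.06 on the log2 scale (limma adjusted p = 9.05e-11), and its other probe set fell by 1.24. The fall of 1.72 was the largest of any member on the scale used here, a rank that other settings can change. Over the alternatives Adgrl1 ran from -1.95 to -1.26, Adgrb2 from -2.87 to -0.67 and Gpr153 from -2.08 to -0.89. Adgrl3 (latrophilin-3) was under the array median throughout, at 11.04, 10.4 and 9.46 against 6.85, 7.53 and 7.53 (-0.17, limma adjusted p = 0.000892, and 0.01 with the poly-A reference). Adgrl4, known from vascular endothelium, was near the floor at 4.04 ± 0.44 and 2.91 ± 0.50 (SD, n = 3 each).

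Among the adhesion receptors of group G, the genes differed in direction too. Adgrg2, known from the epididymis, read 3.47, 4.01 and 3.23 in wild type and 28.1, 22.4 and 32.5 in the arrays labelled knockout, from the floor to above the array median (1.15 ± 0.07, SE, limma adjusted p = 1.79e-08). Its second probe set was under the median on all arrays and rose by 0.08, and with probe sets averaged the gene was at 0.62. The size depended on the offset, at 0.44 with an offset of 64 and 2.64 with an offset of 1. Adgrg1 (GPR56), a receptor of developing brain that binds collagen III and transglutaminase 2, read 34.4, 40.1 and 40.6 against 20.0, 21.7 and 19.0. It fell by 0.58 ± 0.07 (limma adjusted p = 1.49e-05), and its other probe set fell by 0.48. Adgrg6 (GPR126), needed for myelination by Schwann cells, was dim throughout, at 10.9, 8.41 and 7.65 against 3.03, 3.40 and 3.32. Its difference of -0.37 (limma adjusted p = 4.53e-06) came from a probe set ending in s, and the other probe set gave -0.01 (limma adjusted p = 0.642). Adgrg6 and Adgrl3 were named after their values were seen, as dim genes close to bright relatives.

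Adgre5 (CD97), an adhesion receptor of leukocytes and other cells that binds CD55, read 166, 174 and 169 in wild type and 45.4, 44.0 and 44.2 in the arrays labelled knockout. The groups were far apart, and the gene fell by 1.62 ± 0.06 (SE, limma adjusted p = 2.21e-10), read by 1 probe set. Its relative Adgre1, the macrophage antigen F4/80, stayed near the floor at 3.66 ± 0.23 and 3.63 ± 0.20 (SD, n = 3 each). Adgrb2 (BAI2), known from brain, read 43.4, 45.4 and 50.7 against 5.38, 5.73 and 5.38. This was a fall of 1.54 ± 0.06 (limma adjusted p = 3.11e-10) to far under the array median. With knockout values this dim its size depends on the offset, and it ran from -2.87 to -0.67 over the alternatives. Adgrb1 (BAI1), a receptor for engulfing dying cells, read 20.0, 16.4 and 18.4 against 17.1, 20.7 and 18.7, with overlapping groups and a 95% interval of -0.11 to 0.16.

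Adgra2 (GPR124), which together with the membrane protein Reck carries Wnt7 signals in brain vessels, read 298, 272 and 280.5 in wild type and 372, 398 and 429 in the arrays labelled knockout. All knockout values were higher, and the rise was 0.47 ± 0.06 (SE, limma adjusted p = 9.93e-06), or 0.22 with hybridization spike controls and 0.96 with poly-A spike controls. Adgra2 is read by 1 probe set, which ends in s, and no second one checks it. Its relative Adgra3 read 191, 222 and 194 against 202, 201 and 224, which overlapped (95% interval -0.10 to 0.19). Adgra3 was at -0.20 (limma adjusted p = 0.0356) with the hybridization reference and at 0.53 with the poly-A reference. Of all 22 adhesion receptors, 3 rose and 8 fell, beside 24.3% and 35.5% of all genes. The falls numbered 16 with median centring or hybridization spike controls, 5 with poly-A spike controls, where 8 rose, and 4 with dim genes left out. Among them, the 13 under the array median on all arrays ran from -0.37 to -0.002.

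**Figure D2:**
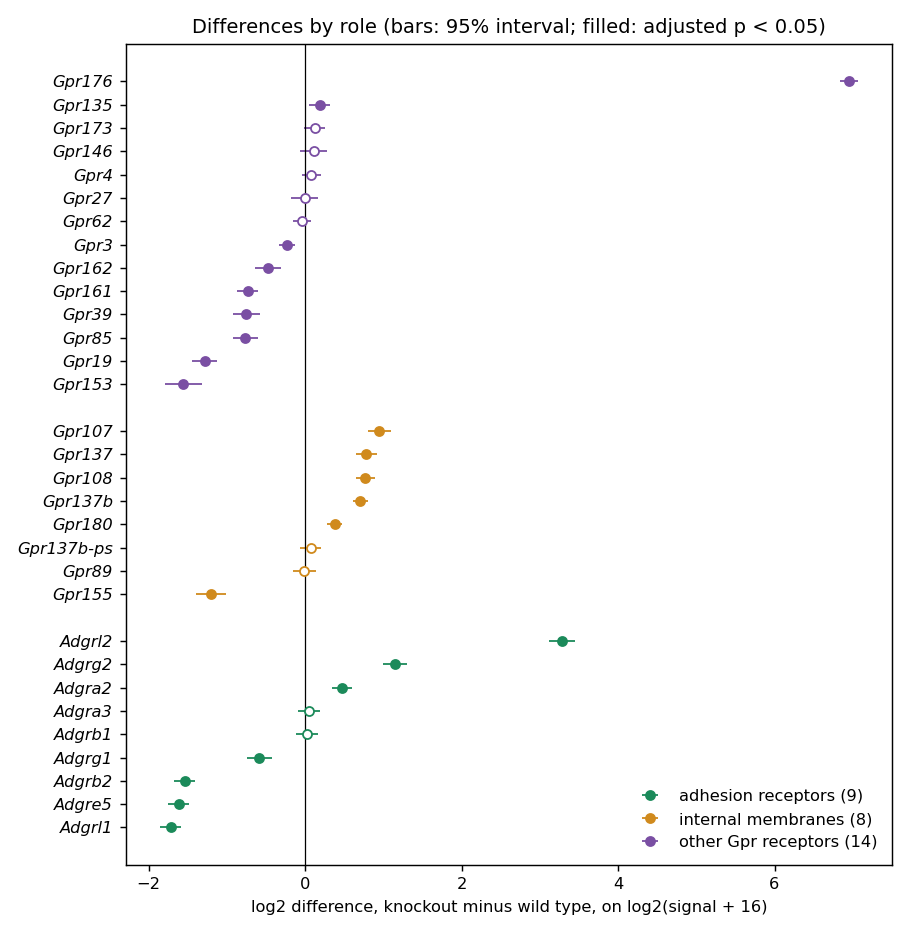
Difference in log2(signal + 16), arrays labelled knockout less wild type, of the 31 brighter members with the 95% interval from limma, grouped as 9 adhesion receptors, 8 proteins of internal membranes and 14 other Gpr receptors, and filled where the adjusted p was under 0.05. Adgrl2 (3.28) and Adgrl1 (-1.72) stand at opposite ends of the adhesion receptors, 5 of the 8 internal membrane proteins lie between 0.38 and 0.95, and Gpr176 (6.95) stands alone among the rest. The 5 include Gpr107 and Gpr137b, whose bright probe sets passed in both directions.

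Several Gpr symbols belong to multi-pass proteins of the Golgi, lysosome and other internal membranes. Of 10 such genes measured, 5 rose and 1 fell, beside 24.3% and 35.5% of all genes. All of these calls were among the 8 that reached the array median on at least 1 array, beside 34% and 45.5% of all genes as bright. The 5 include Gpr107 and Gpr137b, whose bright probe sets passed in both directions. The rises numbered 9 with poly-A spike controls, and the falls 3 with hybridization spike controls. Without the x, s and a probe sets, 3 rose of the 8 genes still measured, which did not include Gpr108. Gpr108, a Golgi protein, read 214, 216 and 208 in wild type and 341, 388 and 394 in the arrays labelled knockout, without overlap (0.77 ± 0.06, SE, limma adjusted p = 9.05e-08). Its relative Gpr107 read 83.8, 89.6 and 102 against 188, 189 and 198 (0.95 ± 0.07, limma adjusted p = 8.00e-08). Another bright Gpr107 probe set went the other way, from 149.6 ± 11.9 to 102 ± 4.93 (SD, n = 3 each, -0.49), and with all 5 probe sets averaged the gene was at 0.22. The lysosomal protein gene Gpr137 read 69.7, 76.0 and 70.7 against 136, 137 and 134, a rise of 0.78 ± 0.06 (limma adjusted p = 2.18e-07). Gpr180, linked to thickening of the vessel wall, read 294, 313 and 306 against 395, 401 and 406, a rise of 0.38 ± 0.04 (limma adjusted p = 6.05e-06) that was 0.13 (limma adjusted p = 0.0986) with hybridization spike controls.

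Gpr155, a lysosomal sensor of cholesterol, was the internal membrane gene that fell. It read 58.1, 52.2 and 44.8 in wild type and 11.4, 15.1 and 13.6 in the arrays labelled knockout, all lower (-1.20 ± 0.09, SE, limma adjusted p = 6.93e-08). Gpr89, the Golgi pH regulator, read 109, 109.6 and 117 against 105, 107 and 122, with overlapping groups and a 95% interval of -0.16 to 0.14. It was at 0.44 with the poly-A reference and at -0.24 with the hybridization reference, both past the threshold (limma adjusted p = 0.000187 and 0.00862).

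The lysosomal gene Gpr137b is uncertain. The probe set used read 318, 317 and 296 against 525, 504 and 517 (0.70 ± 0.04, SE, limma adjusted p = 2.05e-08). It ends in s, a mark of probes that match more than 1 transcript, and the neighbouring Gpr137b-ps is a near-identical copy. Without the x, s and a probe sets, Gpr137b was at -0.02 (limma adjusted p = 0.340). Another bright probe set of Gpr137b fell by 0.25, and of 4 bright probe sets assigned to both genes 1 rose by 0.66, 2 fell by 0.53 and 0.47, and 1 was at -0.16. Gpr137b-ps itself read 171, 169 and 176 against 165, 192 and 189 (95% interval -0.06 to 0.20), and was at -0.17 (limma adjusted p = 0.0410) with hybridization spike controls.

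Among the remaining Gpr receptors, 2 rose and 7 fell of the 14 brighter ones, beside 34% and 45.5% of all genes as bright. The orphan Gpr19 read 139, 160.4 and 140.1 in wild type and 51.2, 49.3 and 51.2 in the arrays labelled knockout, with a fall of 1.28 ± 0.07 (SE, limma adjusted p = 7.15e-09). Its other probe set fell by 0.48. The related orphans Gpr153 and Gpr162 both fell. Gpr153 read 79.3, 93.2 and 116 against 21.5, 19.8 and 24.1 (-1.56 ± 0.11, limma adjusted p = 6.11e-08), the widest spread in wild type among the members that fell. Gpr162 read 28.8, 30.1 and 34.6 against 21.4, 16.3 and 16.3 (-0.47 ± 0.08, limma adjusted p = 0.000178), and was at -0.16 (limma adjusted p = 0.108) with poly-A spike controls.

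Gpr161, a receptor of the primary cilium that holds Hedgehog signalling down by raising cyclic AMP, read 147, 136 and 134 in wild type and 77.7, 77.9 and 76.0 in the arrays labelled knockout. The groups did not overlap, and the fall was 0.74 ± 0.06 (SE, limma adjusted p = 3.93e-07). Its other probe set, dim on all arrays, was at -0.09 and did not pass, and with probe sets averaged the gene was at -0.42. The zinc receptor Gpr39 read 34.2, 24.1 and 31.7 against 12.1, 11.2 and 10.3, a fall of 0.75 ± 0.08 to under the array median (limma adjusted p = 3.31e-06). Gpr3, which raises cyclic AMP without a known need for ligand, read 16.6, 14.997 and 17.6 against 12.0, 11.2 and 11.5 (-0.23, limma adjusted p = 0.00104), and was at 0.01 with the poly-A reference. Its relatives Gpr6 and Gpr12 were under the array median on all arrays.

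Gpr85, Gpr27 and Gpr173 form a small family of highly conserved orphan receptors known from brain. Gpr85 read 71.7, 66.1 and 67.4 in wild type and 34.99, 34.8 and 31.4 in the arrays labelled knockout (-0.76 ± 0.07, SE, limma adjusted p = 1.48e-06), and its 2 other bright probe sets fell by 0.67 and 0.71. Gpr27 read 30.4, 26.3 and 32.1 against 27.1, 32.0 and 28.9, with a 95% interval of -0.18 to 0.16. Gpr173 read 21.2, 21.1 and 19.9 against 24.04, 24.9997 and 22.8, which did not overlap but missed the threshold (0.12, limma adjusted p = 0.102). Gpr27 was at 0.33 (limma adjusted p = 0.00359) and Gpr173 at 0.42 with the poly-A reference, and Gpr173 was at -0.03 with the hybridization reference.

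Gpr135, an orphan, read 14.3, 10.2 and 12.4 against 18.3, 14.5 and 15.7 (0.18, limma adjusted p = 0.0246). The call was lost under 3 of the 4 other scalings, with probe sets averaged (0.08), without the x, s and a probe sets (-0.04), without wild-type array 2 (0.13) and without knockout array 1 (0.14). The proton sensor Gpr4 read 20.7, 20.1 and 20.4 against 22.6, 22.3 and 22.3, apart but with a 95% interval of -0.05 to 0.20. Gpr4 passed with poly-A spike controls (0.37) and without the eBayes trend, and Gpr146 (0.56) and Adgrb1 (0.30) also passed with poly-A spike controls. Gpr146, an orphan linked to plasma cholesterol, read 107, 98.5 and 111 against 104, 112 and 129 (95% interval -0.06 to 0.28), and its other bright probe set fell by 0.17. Gpr62, given above, had a 95% interval of -0.16 to 0.07, and was at 0.18 (limma adjusted p = 0.00930) with poly-A and at -0.16 (limma adjusted p = 0.0111) with hybridization spike controls.

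**Figure D3:**
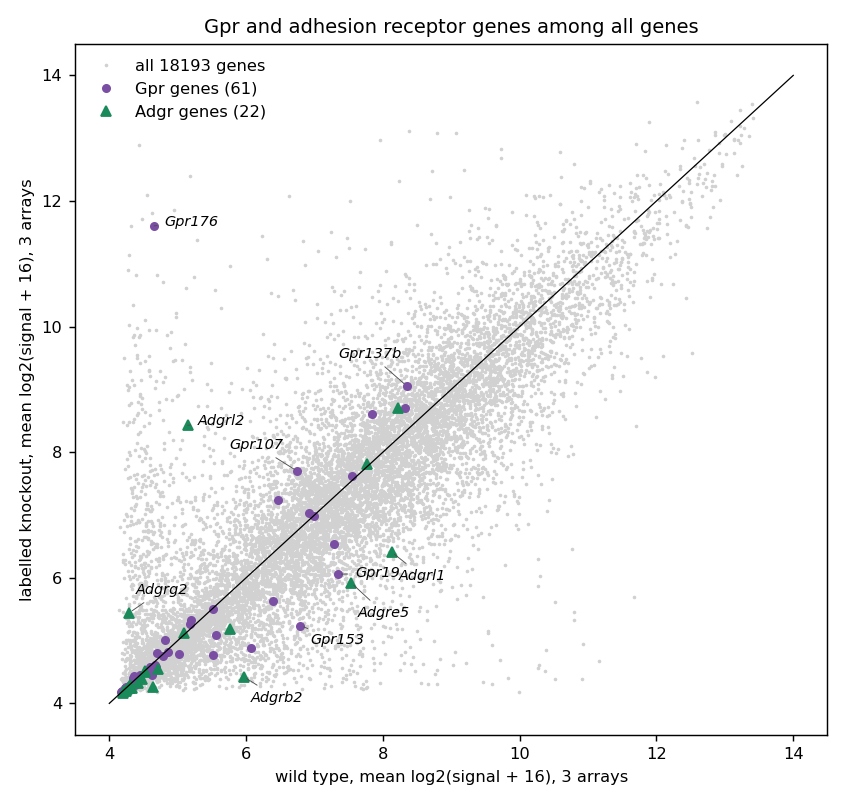
Each point is 1 of 18193 genes, placed by its mean log2(signal + 16) over the 3 wild-type arrays (x axis) and the 3 arrays labelled knockout (y axis), with the 61 Gpr genes as circles, the 22 Adgr genes as triangles and equality as a line. Most members lie in the dim corner on the line, Gpr176 (6.95) and Adgrl2 (3.28) lie far above it, and Adgrl1 (-1.72), Adgre5 (-1.62), Gpr153 (-1.56) and Adgrb2 (-1.54) lie below it.

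Members read by several probe sets gave a check of the probe sets alone. All of them read the same arrays, so they do not check the difference between the groups. Of the 31 brighter members, 14 had several probe sets, and 8 had more than 1 that reached the array median. For 5 of these 8 (Adgrl1, Adgrl2, Adgrg1, Gpr19 and Gpr85) every bright probe set passed in 1 direction. The same share was not computed over all genes, of which 79.5% of those as bright passed by the probe set used, so this count is a description. For Gpr107 and Gpr137b bright probe sets passed in both directions, and for Gpr146 1 of 2 bright probe sets passed.

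**Figure D4:**
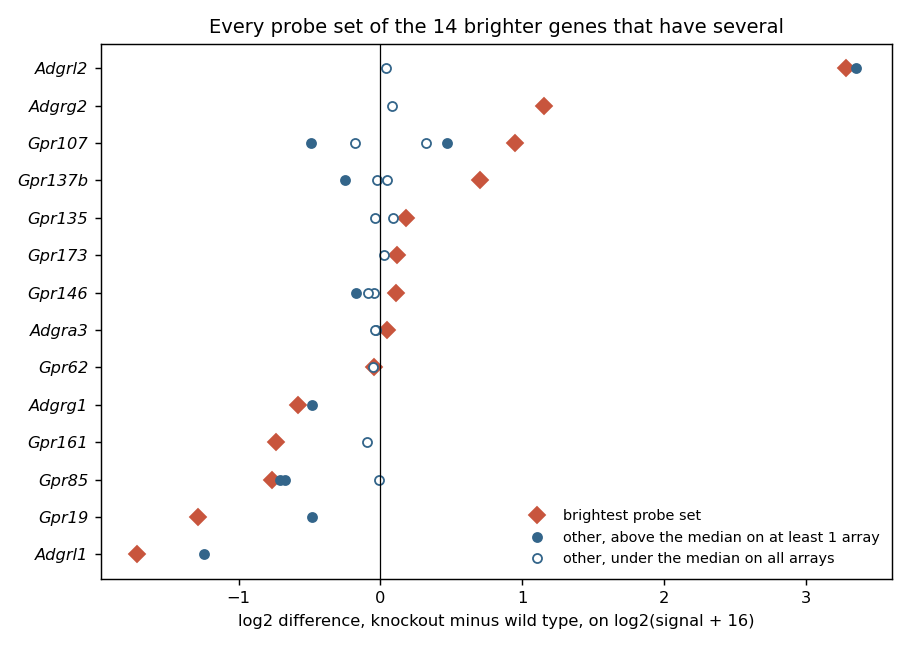
Difference in log2(signal + 16), arrays labelled knockout less wild type, of every probe set of the 14 brighter members that have several, with diamonds for the probe set used, filled circles for others that reached the array median on at least 1 array and open circles for those that did not. The bright probe sets of Adgrl2 (3.28 and 3.36) and Gpr85 (-0.76, -0.71 and -0.67) lie close together, while those of Gpr107 and Gpr137b lie on both sides of 0.

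Some members lie on chromosomes whose genes were shifted as a whole. Over genes that reached the array median on at least 1 array, the median difference was -0.09 for all chromosomes together, -0.58 for chromosome 4, which holds Adgrb2, Gpr153 and Gpr3, and -0.38 for chromosome 8, which holds Adgrl1, Adgre5, Adgrg1 and Adgra2. It was 0.28 for chromosome 13 (Gpr137b), 0.39 for chromosome 14 (Gpr180) and 0.004 for chromosome 2 (Gpr176, Gpr107 and Gpr155). The part of these shifts in the members' values was not tested. Adgre5 and Adgrl1 are direct neighbours among the measured genes, and the genes on either side fell as well, Ddx39a by 0.80 and the histone chaperone gene Asf1b by 2.80. Prkaca (-1.27) lies next to Asf1b. Of the genes flanking Gpr176, Fsip1 was under the array median on all arrays (9.72 and 10.3 on average) and Eif2ak4, a stress kinase gene, rose by 1.14, and Thbs1, next to Fsip1, rose by 4.78. Both genes flanking Adgrl2 were under the array median on all arrays.

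Genes that act with these receptors were taken from 8 lists of 128 genes, 121 of them measured. Of the 121, 37 rose and 43 fell, 16 each way at least 2-fold, and the median difference was -0.02. These are 30.6% and 35.5% of the lists, beside 24.3% and 35.5% of all genes, the shares against which the counts of each list below are to be read. At 2-fold or more the lists had 13.2% each way, beside 7.06% and 8.85% of all genes. Among genes that reached the array median on at least 1 array it was 19% each way, beside 10.6% and 13.3%. The lists were chosen with earlier results of these data known, so these shares are a description. The split was 71 and 21 with poly-A and 26 and 66 with hybridization spike controls. Of 15 G protein alpha subunit genes 3 rose and 8 fell. Beside Gnaz, Gnaq, of the Gq class that drives phospholipase C beta, read 277, 293 and 307 against 427, 436 and 438 (0.55), and Gnas, of the stimulatory class, read 3119, 3147 and 3179 against 4612, 4442 and 4531 (0.52, or 1.496 without the x, s and a probe sets). Gna11, also of the Gq class, read 1158, 1340.2 and 1302 against 875, 901 and 890.1 (-0.50, or 0.01 with the poly-A reference).

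The beta and gamma subunits held some of the largest differences. Of 16 measured, 5 rose and 6 fell. Gnb1 read 1212, 1290.0 and 1246 in wild type and 157, 170.4 and 162 in the arrays labelled knockout (-2.82, or -1.04 without the x, s and a probe sets), and Gnb4 read 341, 390.4 and 328 against 32.5, 26.6 and 26.0 (-3.06). Gng2 read 5.44, 6.36 and 7.23 against 133, 172 and 173 (2.96), and Gng11 17.0, 19.5 and 16.2 against 116, 125 and 104 (1.96). None of these 4 overlapped between the groups.

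Downstream, phospholipase C beta genes went both ways. Of 6 genes of this list, 2 rose and 3 fell. Plcb4 read 15.6, 16.6 and 14.9 in wild type and 458, 447 and 479.9 in the arrays labelled knockout (3.91), Plcb1 rose by 2.22 and Plcb3 fell by 1.09. With probe sets averaged, Plcb4 was at 2.01 and Plcb1 at 0.69. Itpr2, an inositol trisphosphate receptor, was at -0.40, at 0.02 with the poly-A reference and at -0.06 (limma adjusted p = 0.518) without the x, s and a probe sets. Of 19 adenylyl cyclase and protein kinase A genes 7 rose and 6 fell. Prkaca, a catalytic subunit of protein kinase A, read 1182, 1233 and 1110.4 against 479, 486 and 468 (-1.27), the regulatory subunit gene Prkar2a fell by 1.07 (-0.64 with probe sets averaged), the cyclase gene Adcy7 fell by 0.86, and Pkia, an inhibitor of the kinase, rose by 1.13. Of 15 phosphodiesterase genes, whose products break down cyclic nucleotides, 6 rose and 4 fell, of which 4 rose and 2 fell at least 2-fold. The 4 largest differences were rises, of Pde8a (2.13), Pde4d (1.82, or 0.91 with probe sets averaged), Pde3b (1.55) and Pde1b (1.35). All 4 rose from under or close to the array median in wild type.

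Regulators that switch receptor signals off moved in both directions. RGS proteins speed the hydrolysis of GTP by alpha subunits, and of 19 measured 6 rose and 3 fell. Rgs2, which acts on Gq, read 11.7, 11.6 and 17.2 in wild type and 141, 176 and 173 in the arrays labelled knockout (2.60), Rgs17 rose by 2.29 and Rgs16 by 1.88 (1.23 with probe sets averaged), and Rgs10 read 366, 428 and 435 against 94.5, 96.2 and 87.5 (-1.97). Of 11 receptor kinase and arrestin genes 5 rose and 4 fell. Arrb2, beta-arrestin 2, which binds phosphorylated receptors, read 246, 269 and 276 against 31.4, 32.3 and 36.4 (-2.50). Grk5, a kinase that phosphorylates active receptors, read 84.7, 92.0 and 101 against 404, 399 and 417 (1.96), and the arrestin-related genes Arrdc3 and Arrdc4 rose by 2.59 and 2.27, the latter 1.47 with probe sets averaged.

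**Figure D5:**
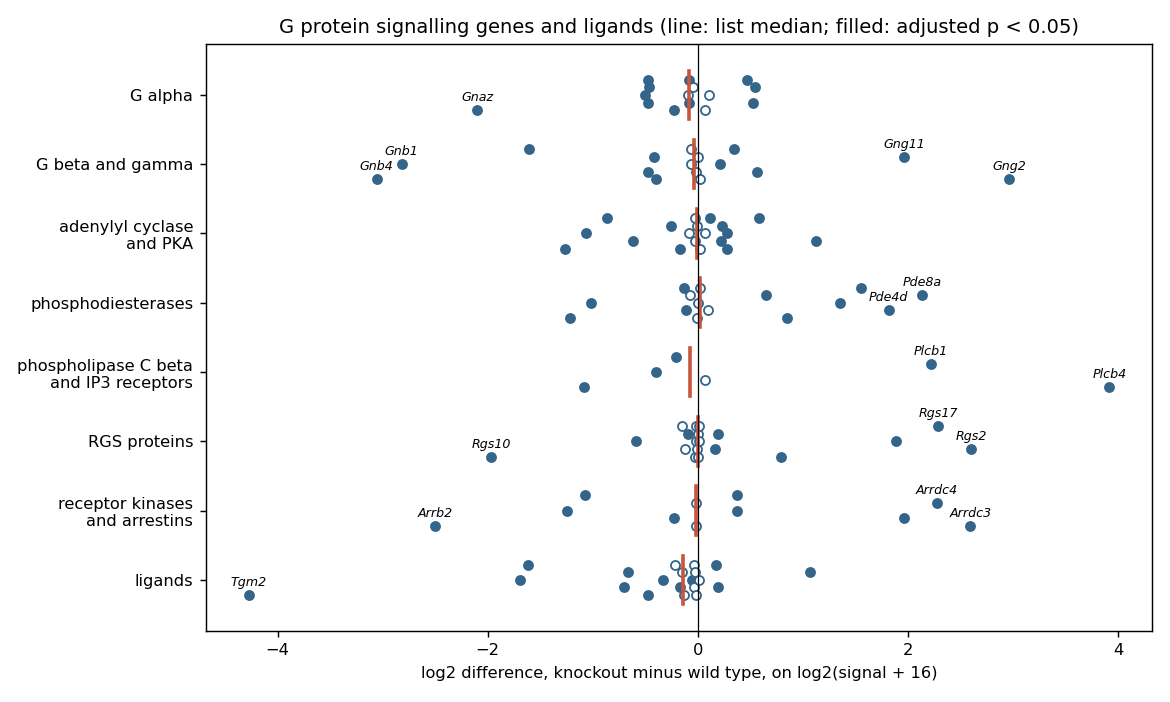
Difference in log2(signal + 16), arrays labelled knockout less wild type, of the 121 measured genes of 8 lists, one point per gene, with filled points for an adjusted p under 0.05 and a line at each list's median. The medians lie between -0.14 and 0.02, while single genes reach from -4.27 (Tgm2) to 3.91 (Plcb4).

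Of 20 measured genes whose products are known to bind these receptors or to make their ligands, 3 rose and 9 fell. Tgm2, transglutaminase 2, a partner of Adgrg1, read 1210.1, 1244 and 1286 in wild type and 40.9, 54.3 and 53.7 in the arrays labelled knockout (-4.27, or -2.45 with probe sets averaged). Among the partners of latrophilins, the teneurin gene Tenm1 read 61.7, 53.1 and 46.5 against 7.07, 4.08 and 5.54 (-1.69), and Flrt1 read 96.9, 95.3 and 83.5 against 20.9, 16.4 and 20.5 (-1.61, or -0.89 with probe sets averaged). Psap, which encodes prosaposin, named as a ligand of Gpr37 and Gpr37l1, read 1719, 1871 and 1598 against 3537, 3817 and 3517 (1.06). Both of those receptors were under the array median on all arrays.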

How the data were processed

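The authors deposited intensities on a linear scale, with a single value for every probe set on each array. MAS5 is named per the submitters' processing notes, with the scaling, the version and its role not given in the sources used here. Groups and replicate numbers came from the sample titles. Of 45101 probe sets (64 controls), 34945 had 1 gene symbol and 932 had several, per the platform annotation. Symbols were updated by Entrez number (34741 matched) through the RefSeq table of GRCm38.p6, which was used for names and neighbours. This changed the symbol of 0 members.

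Signals were taken as log2(signal + 16), and 1 probe set per gene was fitted with limma 3.58.1 in R 4.3.3 (lmFit, eBayes with trend, two-sided, Benjamini-Hochberg over 18193 genes). Further probe sets of a gene come from a second limma fit to the whole array. Named genes were the members that reached the array median on at least 1 array and up to 4 of the largest passing differences per pathway list. The members, lists and rules were chosen with earlier results of these data known.

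Tested on simulated data for this comparison (18193 genes, 200 of them changed), the limma fit found 28% of genes changed 1.2-fold and 92% of those changed 1.5-fold. It found 98% at 2-fold, 100% at 4-fold, and made 7 false calls. The rates were not split by signal, so they do not measure recovery for the 52 members under the array median on all arrays. A far larger share of genes passed in the data (59.8%) than was changed in the simulation, so the adjusted threshold was not the same. Same-numbered arrays of the groups deviated together with correlations of 0.04, 0.13 and 0.18, so the numbers were not taken to pair them. Alternatives were other offsets, scalings, filters, probe set choices, eBayes settings, array weights, a replicate block and leaving out each array. Figures used matplotlib 3.10.9.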

Additional observations from a re-analysis of the deposited data

How the results depend on the processing

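Of the 22 brighter members that passed, 17 kept their direction and their side of the threshold under each of the 20 alternatives that measured them. Of these 17, Gpr108, Adgra2, Adgrg1 and Adgre5 have only x, s or a probe sets, so the alternative without those could not check them. Under the 4 other scalings, 18 of the 22 kept both. Leaving out 1 array at a time gave 9 to 12 members that rose and 17 to 23 that fell, 3 to 4 and 6 to 6 at least 2-fold, and 35 to 37 and 40 to 45 pathway genes that rose and fell. With poly-A spike controls as reference 42 members rose, 7 at least 2-fold, and 11 fell, and 71 pathway genes rose and 21 fell. With hybridization spike controls 53 members and 66 pathway genes fell. These references themselves differed between the groups by -0.52 and 0.26 on the log2 scale. With arrays centred on the median 51 members fell. Leaving out the x, s and a probe sets, 6 of 76 members rose. With dim genes left out 12 of 31 members fell, fewer because fewer were tested. With an offset of 64, 2 members fell at least 2-fold. The other causes were not tested.

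Directions reversed, with at least 1 of the values past the threshold, for Gpr137b (-0.0223) and Gpr135 (-0.0403) when x, s and a probe sets were left out, and for Gpr137b-ps (-0.17) and Adgra3 (-0.20) with hybridization spike controls. With poly-A spike controls they reversed for Gpr27 (0.33), Gpr89 (0.44), Gpr62 (0.18), Gpr3 (0.00859), Adgrl3 (0.00558), Gna11 (0.00933) and Itpr2 (0.0183). Signs also changed with hybridization spike controls, with neither value past the threshold, for Gpr173 (-0.03), Gpr146 (-0.12), Gpr4 (-0.07) and Adgrb1 (-0.12). With the replicate number as a block 11 members rose and 22 fell. Of 32 pathway genes named, 30 kept direction and call under each alternative that measured them. Rgs16, Prkaca, Tgm2 and Psap were not measured without the x, s and a probe sets. For the 52 members under the array median on all arrays, low signal limits what can be measured.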
